A study of Mus musculus with 1012 samples.

Results

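The 10 genes described here are surface or secreted markers of adipose stromal subsets: Dpp4, Cd55, Pi16, Mfap5, Icam1, F3, Ly6a, Thy1, Cd34 and Pdgfra. They were chosen by name as markers, with earlier results of these data known. All 10 were found among the 30452 features counted in 1012 libraries of single mouse cells or single-cell extracts. The libraries of interest were those of adipose stem and progenitor cells (ASPCs), untreated (61 Live-seq and 60 scRNA-seq libraries) and induced (37 and 35), and those of IBA cells from the main experiment. ASPCs were primary cells from the subcutaneous fat of female C57BL/6J mice aged 7 to 10 weeks, profiled untreated (ASPC_Pre) or after 2 days in an adipogenic cocktail of dexamethasone, 3-isobutyl-1-methylxanthine, insulin and rosiglitazone (ASPC_Post). For repeated sampling of the same cell, some ASPCs carried a lentiviral GFP barcode and grew among unmodified ASPCs. IBA is an immortalised brown preadipocyte line from the interscapular brown fat of young male C57BL6/J mice, so that depot, sex and immortalisation differ together between ASPC and IBA cells and cannot be told apart. RAW cells, the macrophage-like line RAW264.7 or its subline RAW-G9 with a Tnf-driven mCherry and an EGFP-Rela reporter, were left unstimulated (RAW_Mock) or given lipopolysaccharide (RAW_LPS), and here they served as the level of these genes in cells of another lineage.

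Adipose tissue holds a pool of fibroblast-like progenitors that line vessels and connective tissue septa and renew the adipocytes. Single-cell studies divide this pool into interstitial progenitors, marked by the protease Dpp4, the complement inhibitor Cd55, the secreted peptidase inhibitor Pi16 and the microfibril protein Mfap5, and into more committed preadipocytes marked by the adhesion molecule Icam1. A further population carries F3, the coagulation initiator tissue factor or CD142, and has been described as regulating adipogenesis. Ly6a (Sca1), Thy1 (CD90), Cd34 and the growth factor receptor Pdgfra mark stromal progenitors broadly and serve to sort them.

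Sequence before the start sites of Icam1 and F3 is printed here, from RefSeq on GRCm38.p6, because these were the members whose windows held a match to the motifs searched. Promoter windows, from 250 bases before to 50 bases after a start site, were held for 7 of the 10 genes, all but Mfap5, Ly6a and Thy1. Searched for GGANNTTCC, a short form of the NF-kB motif, on both strands, 4.26% of all 32851 windows held a match, and so did those of Icam1 and F3 among the 7 genes. TGANTCA, the AP-1 motif, which reads alike on both strands, was in 7.81% of all windows and, among the 7 genes, only in that of F3. Capitals mark the motif, and each match is a description of these letters and not a shown binding site.
Icam1, NF-kB motif, chr9:21015777-21015805, plus strand: acttcagtttGGAAATTCCtagatcgcag
F3, NF-kB motif, chr3:121723415-121723443, plus strand: tcggggtctcGGAGTTTCCtacaggaggg
F3, AP-1 motif, chr3:121723381-121723407, plus strand: gcggcgctgtTGAATCAcggttgagtc
F3, AP-1 motif, chr3:121723392-121723418, plus strand: gaatcacggtTGAGTCAcccctttcgg

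The study applied 2 techniques. Live-seq takes a biopsy of cytoplasm from a living, attached cell with a fluidic force microscope, and scRNA-seq lyses a whole cell after trypsin and sorting. Both used Smart-seq2 chemistry without molecular identifiers, so intervals and floors given below cover counting error only. ASPC_Pre cells came from 2 batches in each technique (Live-seq 8_8 with 18 cells and 9_4 with 43, scRNA-seq 8_8 with 16 and 9_1 with 44), ASPC_Post cells from 1 batch in each (37 cells in Live-seq 9_4 and 35 in scRNA-seq 9_1), and IBA cells from 3 batches in each (Live-seq 7, 8_8 and 9_4 with 13, 14 and 17 cells, scRNA-seq 8_8, 9_1 and scRNA with 15, 45 and 93). The median total count per ASPC_Pre cell was 228158 and 509637 in the Live-seq batches and 345074 and 796342 in the scRNA-seq batches. Live-seq batch 8_8 stood apart with a median of 1635 genes counted per ASPC_Pre cell, against 6057 in batch 9_4 and 7945.5 and 9609 in the scRNA-seq batches. Levels are CPM, the counts of a gene scaled to the total of the summed cells of a batch, and the batch was the replicate, since cells of a batch are not independent of each other. Whether batches were cultured from different animals is not stated, so the p-values do not measure a spread between animals. In the main fits they rest on the spread between the batch sums of all states, RAW cells included. Where batch was in the fit, this is the spread left after differences shared by a batch were removed.

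Ptprc, Cdh5, Adipoq and Lep were at or near 0 in the ASPC libraries. Other genes of the macrophage, endothelial, adipocyte, pericyte and mesothelial lists were counted. The pan-leukocyte gene Ptprc stood between 0 and 0.0629 CPM in the ASPC batches and the endothelial cadherin Cdh5 at 0 in all. Counts were found for 3 to 9 of 10 macrophage genes, summing to between 1.25 and 86.0 CPM per batch, for 2 to 6 of 8 endothelial genes (7.20 to 47.6 CPM) and for 2 to 5 of 7 pericyte genes (4.32 to 201.8 CPM). A macrophage gene was counted in 2 of 18 and 34 of 43 cells of the Live-seq ASPC_Pre batches 8_8 and 9_4. In ASPC_Post this held for 15 of 37 Live-seq and 30 of 35 scRNA-seq cells. The highest pericyte sum, in Live-seq ASPC_Pre batch 8_8, came from Mcam in 3 and Myh11 in 2 of 18 cells, with Rgs5, Cspg4, Kcnj8, Notch3 and Higd1b at 0. The adipocyte genes Adipoq and Lep were at 0 in every ASPC batch, ASPC_Post included. The adipocyte list as a whole summed to 34.2 CPM in Live-seq ASPC_Pre batch 8_8, from 1 of 18 cells. In Live-seq ASPC_Pre batch 9_4 it summed to 0.692 CPM, from 3 of 43 cells. In ASPC_Post it summed to 7.07 CPM in Live-seq (9 of 37 cells) and 7.26 CPM in scRNA-seq (18 of 35 cells). The mesothelial list was led by the keratin Krt19, at 162 and 36.01 CPM in the scRNA-seq batches 8_8 and 9_1 and 214.02 and 36.8 CPM in the Live-seq batches 8_8 and 9_4 of ASPC_Pre but at 0.290 CPM in scRNA-seq and 0.0626 CPM in Live-seq ASPC_Post, while Krt8 was at 0 in all and Msln, Upk3b and Upk1b were at 2.84 CPM or less. Of the stromal genes outside the 10 members, 9 of 10 were counted in every ASPC batch, summing to between 8398 and 16121 CPM.

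**Figure D1:**
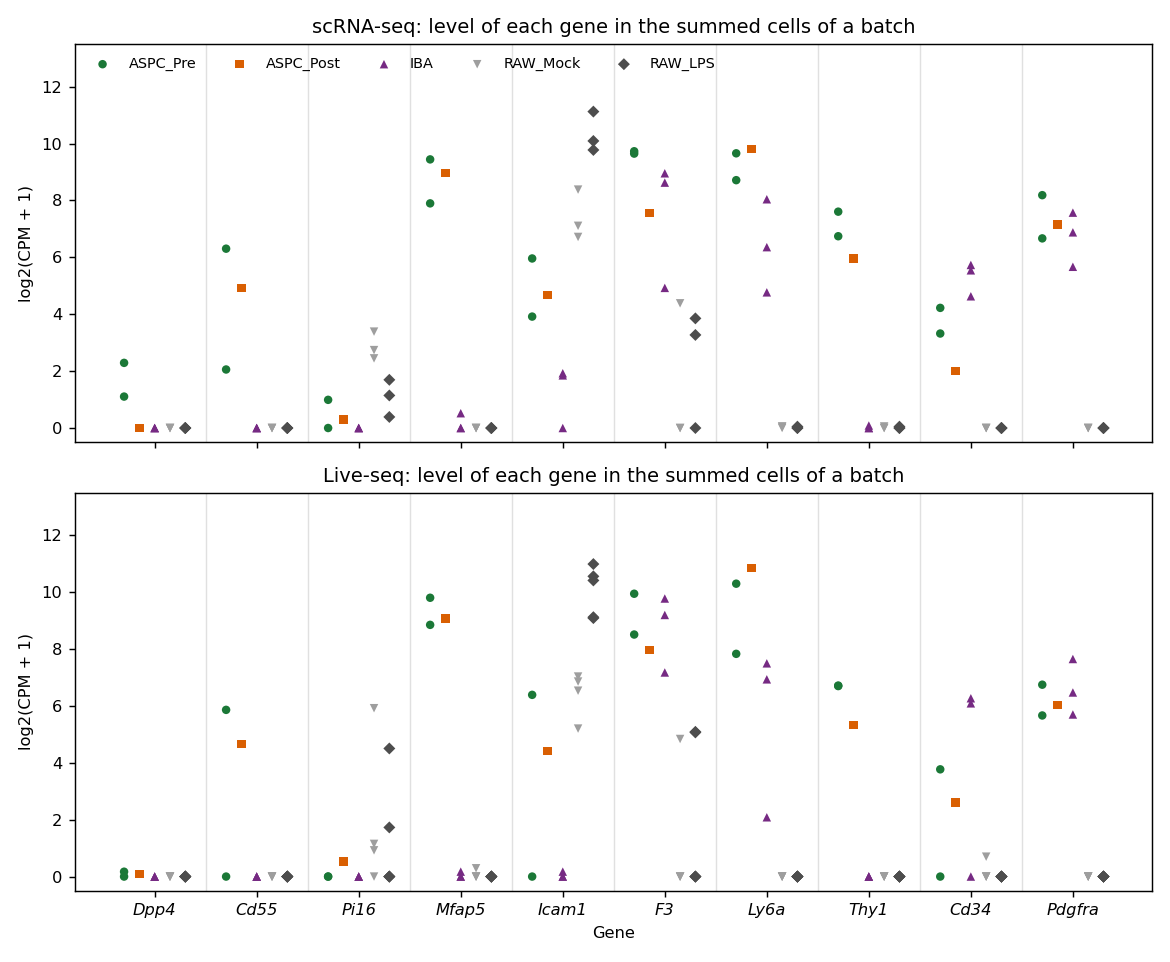
Level of each of the 10 genes, as log2(CPM + 1) of the summed cells of a batch, in scRNA-seq (top) and Live-seq (bottom); each point is 1 batch of at least 3 cells and its colour and shape give the cell state. Mfap5 and Thy1 lie high in ASPC and near 0 in IBA batches, whereas F3 and Pdgfra overlap between ASPC_Pre and IBA in Live-seq and Icam1 is highest in RAW_LPS.

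Among the interstitial markers, Mfap5 was abundant and Cd55 variable, while Dpp4 and Pi16 were hardly counted. Mfap5 was at 237.4 and 694.99 CPM in the 2 scRNA-seq batches of ASPC_Pre (466.2 ± 323.6, SD, n = 2) and at 460 and 891.03 CPM in the 2 Live-seq batches. It was counted in 59 of 60 scRNA-seq and 52 of 61 Live-seq cells. In single ASPC_Pre cells of scRNA-seq batch 9_1 it had a median of 539.4 and a highest value of 1918 CPM.

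Cd55 differed between batches far more than Mfap5. In scRNA-seq ASPC_Pre it was at 3.16 CPM in batch 8_8 (95% Poisson interval 1.68 to 5.41) and at 78.0 CPM in batch 9_1 (74.6 to 81.6), a 24.7-fold difference between batches of the same state. In Live-seq it had no count in the 18 cells of batch 8_8, where a floor of 3 counts is 0.748 CPM, and was at 57.1 CPM in batch 9_4. The share of ASPC_Pre cells with a Cd55 count was 25% (exact binomial interval 7.27 to 52.4%) and 65.9% (50.1 to 79.5%) in the scRNA-seq batches and 44.2% (29.1 to 60.1%) in Live-seq batch 9_4. Its counts were uneven within a batch, where the highest cell held 40.5% of all Cd55 counts of scRNA-seq batch 9_1 and reached 1637 CPM, against a median cell of 16.03 CPM. Its near copy Cd55b had 1 count in all ASPC and IBA libraries.

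Dpp4, the marker by which the interstitial population is usually named, was at 3.89 and 1.15 CPM in the scRNA-seq batches of ASPC_Pre. It was counted in 4 of 16 and 4 of 44 of these cells, in 1 of 61 Live-seq ASPC_Pre cells and in none of 35 scRNA-seq ASPC_Post cells, for which the exact binomial interval reaches 10.0%. Pi16 was counted in 5 of 44 scRNA-seq ASPC_Pre cells of batch 9_1, at 0.987 CPM, and in none of the 61 Live-seq ASPC_Pre cells. The level of Pi16 in ASPCs lay below that in scRNA-seq RAW_Mock cells, 6.53 ± 2.62 CPM (SD, n = 3), where 21.02% of cells had a count. Dpp4 and Cd55, by contrast, had no count in any RAW batch.

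Icam1, the committed preadipocyte marker, followed the batch pattern of Cd55. It was at 14.1 and 61.3 CPM in the scRNA-seq batches 8_8 and 9_1 of ASPC_Pre and at 0 and 82.7 CPM in the Live-seq batches 8_8 and 9_4. It was counted in 43.8% and 63.6% of the scRNA-seq cells, and in 46.5% of the Live-seq cells of batch 9_4. F3, in contrast, was high in every batch, at 847.6 and 800.4 CPM in scRNA-seq (823.97 ± 33.4, SD, n = 2) and at 363.2 and 982.9 CPM in Live-seq. It was counted in 54 of 60 scRNA-seq and 48 of 61 Live-seq ASPC_Pre cells. The F3 counts were spread widely over cells, from 0 to 3467 CPM with a median of 435.4 CPM in scRNA-seq batch 9_1.

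The broad stromal markers fell into 3 abundant genes and 1 rare gene. Ly6a was at 418.5 and 806.2 CPM in the scRNA-seq batches of ASPC_Pre and was counted in 59 of 60 cells. In Live-seq it was at 226.5 CPM in batch 8_8, counted in 7 of 18 cells, and at 1256 CPM in batch 9_4, counted in 42 of 43 cells. Thy1 was the steadiest gene in Live-seq, with 104.02 and 102.7 CPM in the 2 batches, and was at 106.035 and 193.7 CPM in scRNA-seq. Pdgfra went against the others in CPM by being higher in batch 8_8 than in the second batch of each technique, at 290.1 against 100.6 CPM in scRNA-seq and 106.3 against 49.7 CPM in Live-seq. In Live-seq the share of cells with a Pdgfra count went the other way, 22.2% in batch 8_8 against 53.5% in batch 9_4. There 1 cell of batch 8_8 reached 10.99 in log2(CPM + 1). Cd34, a classical sorting marker of the adipose stroma, was at 9.00 and 17.7 CPM in scRNA-seq ASPC_Pre and was counted in 17 of 60 cells. In Live-seq batch 9_4 it was counted in 3 of 43 cells, 1 of which held 89.6% of its counts.

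Per kilobase of exon, the order of levels in scRNA-seq ASPC_Pre batches ran from Ly6a (347.3 and 669.03 CPM per kilobase), F3 (335.4 and 316.7), Mfap5 (66.1 and 193.6), Thy1 (35.4 and 64.7) and Pdgfra (28.9 and 10.0) to Icam1 (3.24 and 14.05), Cd55 (0.651 and 16.1), Cd34 (1.23 and 2.42), Dpp4 (0.616 and 0.182) and Pi16 (0 and 0.155), with batch 8_8 named first. The batch values of Pdgfra, Icam1, Cd55 and Cd34 overlapped between neighbours in this order, and those of the other neighbours did not. The counts do not use strand. Opposite-strand genes share exon bases with Dpp4, Cd55, Pi16, Icam1, Cd34 and Pdgfra, and their reads cannot be told apart there, whereas the exons of Mfap5, F3, Ly6a and Thy1 overlap no other annotated gene.

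**Figure D2:**
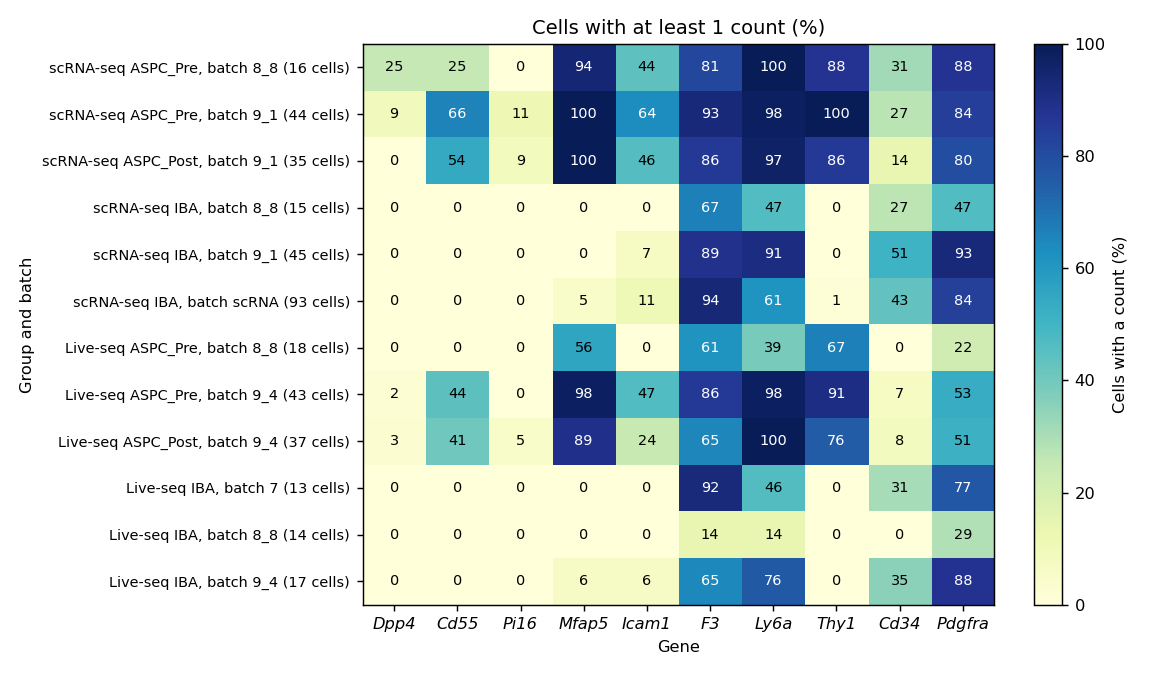
Percentage of cells with at least 1 count of each gene (columns) in each group and batch (rows, with the number of cells). Mfap5, F3, Ly6a, Thy1 and Pdgfra fill the scRNA-seq ASPC rows, Dpp4 and Pi16 stay at 25% or below in the ASPC rows, and the Live-seq row of ASPC_Pre batch 8_8 is emptier than the others.

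Next, ASPC_Pre was compared with the IBA line, another preadipocyte culture, to see which of the markers separate primary progenitors from it. In scRNA-seq, 9 of the 10 genes passed the filter on low counts, all but Dpp4, and 5 of the 9 were called higher in ASPC_Pre and none lower, by edgeR's quasi-likelihood test with Benjamini-Hochberg adjustment over all genes (adjusted p under 0.05 and an absolute log2 fold change over 1). Over all 12299 genes tested, 11.5% were called, and 7.44% were called higher and 4.04% lower in ASPC_Pre. The called genes were Mfap5, Thy1, Cd55, Icam1 and Ly6a. Of these, Mfap5, Thy1 and Cd55 passed the filter only through ASPC cells. In scRNA-seq IBA they had a count in 3.27%, 0.654% and 0% of cells. For these genes the filter left little room for the other direction, so the direction of their calls is no independent support.

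Mfap5 was at 0, 0 and 0.434 CPM in the scRNA-seq IBA batches 8_8, 9_1 and scRNA, against 237.4 and 694.99 CPM in ASPC_Pre. Over all cells it had 14 counts in IBA and 17882 in ASPC_Pre, a ratio of pooled CPM of 3076 (95% interval 1833 to 5628). The fitted log2 fold change was 15.48 ± 0.66 (SE, adjusted p = 0.00302 by edgeR). This fitted value lies above the pooled ratio and its interval. With IBA sums at or near 0, the size of such fitted values and their SE is poorly determined. Thy1 had 2 counts in IBA and 5149 in ASPC_Pre, a pooled ratio of 6200 (1716 to 51213), with a fitted log2 fold change of 12.68 ± 1.00 (adjusted p = 0.000708 by edgeR). Cd55 had no count in the scRNA-seq IBA cells and was at least 1534-fold higher in ASPC_Pre, with the floor at 3 counts over the group. Its fitted value of 13.67 ± 1.67 (adjusted p = 0.0200 by edgeR) rests on batch 9_1, and without that batch it was not called (8.76, adjusted p = 0.224 by edgeR). Thy1 was likewise not called without batch 9_1 (12.70, adjusted p = 0.0793 by edgeR), where only batch 8_8 is left in ASPC_Pre.

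Icam1 was at 0, 2.80 and 2.61 CPM in the scRNA-seq IBA batches, and all lay below the 14.1 and 61.3 CPM of ASPC_Pre (log2 fold change 4.90 ± 0.64, adjusted p = 0.00365 by edgeR). In IBA batch 9_1 a single cell held 97.7% of the Icam1 counts. Ly6a was at 26.3, 262.4 and 81.0 CPM in the scRNA-seq IBA batches and did not overlap with ASPC_Pre (3.09 ± 0.49, adjusted p = 0.00734 by edgeR). Without the block of batch the adjusted p of Ly6a was 0.0518, with a log2 fold change of 2.59.

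The other 4 genes tested did not pass. F3 was at 29.4, 394.2 and 495.05 CPM in scRNA-seq IBA, below both ASPC_Pre batches, with a log2 fold change of 3.79 ± 1.42 (adjusted p = 0.112 by edgeR), and it was called without batch 9_1 (5.42, adjusted p = 0.0317). It was counted in 10 of 15, 40 of 45 and 87 of 93 cells of the IBA batches and in 13 of 16 and 41 of 44 cells of the ASPC_Pre batches. Pi16 had no count in IBA and 24 in ASPC_Pre (adjusted p = 0.0633 by edgeR). Pdgfra stood at 49.8, 189.2 and 116.6 CPM in IBA and overlapped with ASPC_Pre (1.10 ± 0.91, adjusted p = 0.482 by edgeR), and its sign turned without batch 8_8 (−0.64). Cd34 had the opposite order, at 23.8, 52.2 and 45.6 CPM in IBA, all above the 9.00 and 17.7 CPM of ASPC_Pre, with a log2 fold change of −1.18 ± 0.62 (adjusted p = 0.275 by edgeR).

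Dpp4 failed the filter, with 44 counts in ASPC_Pre and none in scRNA-seq IBA, at least 35.3-fold lower in IBA with the floor at 3 counts. It was counted in 8 of 60 ASPC_Pre cells.

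In Live-seq, Mfap5, Thy1, Cd55, Icam1 and Ly6a were again lower in IBA by their pooled values, but no member was called. The filter kept 7 of the 10 genes, and edgeR called 0 of them (4 at an unadjusted p under 0.05, and 1, Icam1, called by DESeq2). Of all 10102 genes tested, 0.0099% were called by edgeR and 1.67% by DESeq2. The genes at an unadjusted p under 0.05 were Mfap5, Icam1, Ly6a and Thy1. The share of all genes under that threshold is not given here, so no conclusion is drawn from the 4. Mfap5 and Thy1 passed the filter only through ASPC cells, as in scRNA-seq, so their direction is no independent support. Mfap5 had 1 count in 44 Live-seq IBA cells, against 16015 in ASPC_Pre (log2 fold change 13.61, adjusted p = 0.213 by edgeR). Thy1 and Cd55 had none in IBA, and were at least 751.05-fold and at least 332.5-fold higher in ASPC_Pre, where all Cd55 counts came from batch 9_4 and batch 8_8 gave no bound. Dpp4 had 2 counts in Live-seq ASPC_Pre and none in IBA, and Pi16 none in either. Icam1 had 1 count in IBA and 1316 in ASPC_Pre, all of them in batch 9_4 (8.98, adjusted p = 0.476 by edgeR). Ly6a was at 121.2, 3.24 and 179.5 CPM in the IBA batches 7, 8_8 and 9_4, below both ASPC_Pre batches (226.5 and 1256 CPM). F3, at 874.8, 143.5 and 585.6 CPM, and Pdgfra, at 87.7, 50.9 and 200 CPM, overlapped with ASPC_Pre. Cd34 was at 67.1, 0 and 76.04 CPM in Live-seq IBA, above the 12.6 CPM of ASPC_Pre in batch 9_4 and at 0 in both cell types in batch 8_8.

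The difference between techniques in ASPC_Pre against IBA was tested as an interaction and was not called for any of the 8 genes tested (0 at an unadjusted p under 0.05 by edgeR and 0 called by DESeq2, with 0% called over all genes). Live-seq against scRNA-seq within ASPC_Pre likewise had 0 calls among 8 genes (0 at an unadjusted p under 0.05, 0 by DESeq2), beside 0% called over all 12142 genes by edgeR and 0.511% by DESeq2. Standard errors there were between 1.23 and 2.62 on the log2 scale, and differences of that size were not detectable here. In batch 8_8, the 1 batch with both techniques, Thy1 was at 104.02 and 106.035 CPM in Live-seq and scRNA-seq, whereas F3 was 2.33-fold lower (363.2 and 847.6 CPM) and Pdgfra 2.73-fold lower (106.3 and 290.1 CPM) in Live-seq, and Mfap5 was 1.94-fold higher (460 and 237.4 CPM). Ly6a was 1.85-fold lower in Live-seq there (226.5 and 418.5 CPM), and Cd55, Icam1, Cd34 and Dpp4 were at 0 in Live-seq and counted in scRNA-seq, while Pi16 was at 0 in both.

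Other genes of the same subsets were taken from lists. Over all 12299 genes tested in scRNA-seq, 7.44% were called higher in ASPC_Pre than in IBA and 4.04% lower. Whether the list genes passed the filter on low counts only through ASPC cells was not examined. For any that did, the direction of a call is no independent support. Of 12 interstitial progenitor genes, 6 were tested in scRNA-seq and 2 were called higher in ASPC_Pre than in IBA and none lower: the secreted semaphorin Sema3c (log2 fold change 6.36 ± 0.58, adjusted p = 0.00607 by edgeR) and the annexin Anxa3 (1.28 ± 0.30, adjusted p = 0.0301). Of 12 committed preadipocyte genes, 9 were tested and 1, the chemokine Cxcl14, was called higher (11.26 ± 1.19, adjusted p = 0.00167 by edgeR). A call of 1 among 9 genes is close to the share over all genes. None of the 5 tested genes of the regulatory list was called by edgeR. Of the broad stromal list, 9 were tested and 2 were called higher, the proteoglycan Dcn (4.15 ± 0.46) and the TGF-beta co-receptor Eng (6.43 ± 0.87), both at an adjusted p of 0.00425. The median log2 fold change was 2.00 in the interstitial list, 0.46 in the committed, 1.09 in the regulatory and 0.85 in the stromal list, beside 0.07 over all genes. Among genes that moved with this comparison, the mesothelial keratin Krt19 was also higher in ASPC_Pre (4.13 ± 0.76, adjusted p = 0.0325 by edgeR) and the glucocorticoid target Fkbp5 lower (−1.87 ± 0.44, adjusted p = 0.0292 by edgeR), and their part in the members' values was not tested.

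The next comparison asked how the markers differed between ASPCs before and after the adipogenic cocktail. Within both batches that held both states, F3, Icam1, Cd55, Thy1, Cd34 and Mfap5 had lower CPM in ASPC_Post, and Ly6a and Pdgfra higher CPM. The Cd34 level in Live-seq rests on few cells. None of the 8 genes tested was called by edgeR over both techniques (0 at an unadjusted p under 0.05, 0 by DESeq2), with 0.0329% of 12142 genes called. There was 1 ASPC_Post batch per technique.

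F3 was at 187.1 CPM in scRNA-seq ASPC_Post against 800.4 CPM in ASPC_Pre of the same batch, 4.28-fold lower, and at 249.2 against 982.9 CPM in Live-seq, 3.94-fold lower. The fitted log2 fold change was −3.27 ± 1.87 (adjusted p = 1 by edgeR). The committed preadipocyte marker was lower as well. Icam1 was at 24.5 against 61.3 CPM in scRNA-seq, 2.50-fold lower, and at 20.2 against 82.7 CPM in Live-seq, 4.09-fold lower. Its share of cells went from 63.6% to 45.7% in scRNA-seq and from 46.5% to 24.3% in Live-seq. The same direction was seen for an interstitial and for a broad stromal marker. Cd55 was at 29.4 against 78.0 CPM (2.65-fold lower) and at 24.4 against 57.1 CPM (2.34-fold lower). Thy1 was at 61.2 against 193.7 CPM (3.17-fold lower) and at 38.98 against 102.7 CPM (2.64-fold lower). Mfap5 had the smallest ratios of these, at 496.7 against 694.99 CPM and at 535.2 against 891.03 CPM. Only Ly6a and Pdgfra among the 8 genes tested were higher in ASPC_Post of both batches. Ly6a was at 897.7 against 806.2 CPM in scRNA-seq and at 1841 against 1256 CPM in Live-seq. Pdgfra was at 141.1 against 100.6 CPM and at 64.1 against 49.7 CPM. Cd34 was at 3.02 against 17.7 CPM and at 5.07 against 12.6 CPM. It had a count in 14.3% of scRNA-seq ASPC_Post cells against 27.3% of ASPC_Pre cells. In Live-seq the share was 8.11% in ASPC_Post against 6.98% in ASPC_Pre, the other direction from the level. There 1 ASPC_Pre cell held most of the Cd34 counts, as given above. The rare genes were not tested. Dpp4 was at 0 against 1.15 CPM in scRNA-seq and at 0.0626 against 0.126 CPM in Live-seq, and Pi16 at 0.232 against 0.987 CPM and at 0.438 against 0 CPM.

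The fitted values of Ly6a (−0.25 ± 0.59) and Pdgfra (−0.42 ± 1.10) had the opposite sign to these within-batch ratios, in a fit whose batch terms also rest on IBA and RAW cells, and turned positive with DESeq2 (0.51 and 0.09), as did that of Mfap5 (0.26). With the ASPC sums of batches 9_1 and 9_4 alone, an alternative chosen after the data were seen that leaves out IBA, RAW and the ASPCs of both 8_8 batches, 4 of the 8 genes were called lower by edgeR and none higher, beside 4.32% of 11998 genes called lower, 5.95% called higher and 10.3% called in all. These were F3 (log2 fold change −1.92 ± 0.19, adjusted p = 6.82e-05), Thy1 (−1.41 ± 0.25, adjusted p = 0.0037), Icam1 (−1.56 ± 0.33, adjusted p = 0.0114) and Cd55 (−1.20 ± 0.32, adjusted p = 0.0317), while Cd34 (−1.81 ± 0.64, adjusted p = 0.0885), Mfap5 (−0.49 ± 0.18, adjusted p = 0.0988), Ly6a (0.47 ± 0.19, adjusted p = 0.127) and Pdgfra (0.55 ± 0.24, adjusted p = 0.176) were not called. That fit has 1 sum of each state per technique, and its calls rest on these 2 batches.

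The gene lists were compared in the same way. The 10 genes known to respond to the cocktail had a median log2 fold change of 2.00 over the 9 tested, beside 0.00 over all genes, with 0 called by edgeR. The medians were −0.13 over 6 interstitial, −0.19 over 9 committed, −0.32 over 5 regulatory and 0.05 over 9 stromal genes, with no call among them, and −1.03 over the 8 members tested. Krt19, which was at or near 0 in ASPC_Post as given above, moved with these groups and its part was not tested.

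By the labels, 9 cells were sampled by Live-seq before and again after induction, all in batch 9_4, and they are described without a test. The study's text counts fewer pairs, and the labels do not say which of the 9 these are. F3 was lower after induction in 8 of the 9 cells. It went from a range of 0 to 3487 CPM (median 271.9) to one of 0 to 96.7 CPM (median 37.6). Thy1 was lower in 7 of 9 cells, from a median of 170.8 CPM (0 to 436.3) to 12.7 CPM (0 to 168.95), and Mfap5 in 7 of 9, from a median of 944.6 CPM (126.1 to 2737) to 104.3 CPM (0 to 1657). Ly6a had no common direction, being higher in 5 and lower in 4 cells, and stayed counted in all 9 at both times. Pdgfra, whose batch level was higher after induction, was lower in 5 and higher in 2 of these cells, with a median change of −0.29 in log2(CPM + 1). Cd55 was counted in 3 cells before and in 2 other cells after, in no cell at both times. Icam1 was counted in 5 cells before and 2 after, with 1 cell in common, and Dpp4 in none. Pi16 was counted in 1 cell after induction, and Cd34 in 1 cell before and 1 other cell after. Each value comes from a biopsy of a part of the cytoplasm, and a gene at 0 in it may have been present in the cell. The number of genes counted differed as well. In the cells with F3 at 0 after induction it went from 2627 to 2343, 7760 to 1964, 7017 to 4280 and 5939 to 2664. In the other cells with lower F3 it went from 4351 to 2566, 8444 to 7179, 6017 to 6951 and 7417 to 8331. In the cell with higher F3 it went from 3422 to 7755. Its part in the changes was not tested.

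**Figure D3:**
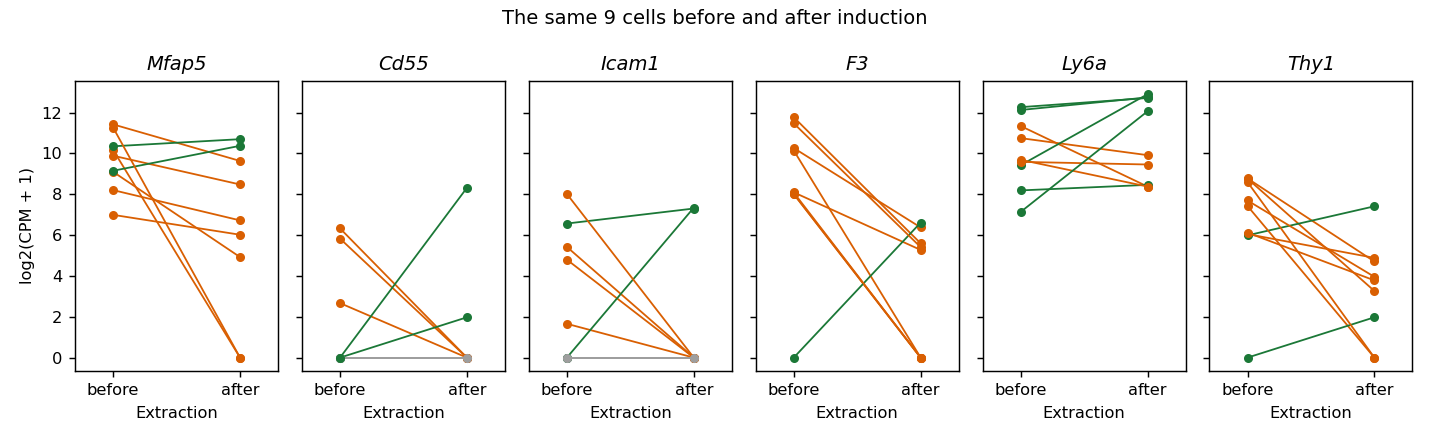
Level in log2(CPM + 1) of 6 genes in the same 9 ASPCs sampled by Live-seq before and after induction; each line is 1 cell, green where higher, orange where lower and grey where equal after induction. F3 is lower in 8 of 9 cells, Thy1 and Mfap5 in 7 of 9, and Ly6a has lines in both directions.

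To describe which markers were found together, the members counted in each cell were considered next. An ASPC_Pre cell had on average 5.75 and 6.52 of the 10 genes with a count in scRNA-seq batches 8_8 and 9_1, and 2.44 in batch 8_8 and 5.26 in batch 9_4 of Live-seq. IBA cells had 1.87, 3.31 and 2.99 in scRNA-seq and 2.46, 0.571 and 2.76 in Live-seq. ASPC_Post cells had 5.71 in scRNA-seq and 4.62 in Live-seq, fewer than ASPC_Pre of the same batch in both. Ly6a, Thy1 and Pdgfra, a common definition of a stromal progenitor, were all counted in 13 of 16 and 37 of 44 scRNA-seq ASPC_Pre cells, in 26 of 35 scRNA-seq ASPC_Post cells, and in 0 of 18 and 23 of 43 Live-seq ASPC_Pre cells. In IBA they were all counted in 1 scRNA-seq cell and in 0 of 44 Live-seq cells. With every cell thinned to 50000 counts, the ASPC_Pre shares were 75.0% and 70.5% in scRNA-seq and 0% and 32.6% in Live-seq.

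Next, the interstitial marker Cd55 and the committed marker Icam1 were compared cell by cell, and in ASPC_Pre of batches 9_1 and 9_4 most cells with either had both. In scRNA-seq ASPC_Pre batch 9_1, 24 of 44 cells had both, 5 Cd55 alone, 4 Icam1 alone and 11 neither, where independent shares would give 18.5 cells with both. In Live-seq ASPC_Pre batch 9_4, 14 of 43 had both, 5 and 6 had Cd55 or Icam1 alone and 18 neither, where independent shares would give 8.84. In the other groups cells with both were not the majority of those with either. There were 3 with both, 1 with Cd55 alone and 4 with Icam1 alone in scRNA-seq ASPC_Pre batch 8_8 (1.75 with both by independent shares), 10, 9 and 6 in scRNA-seq ASPC_Post (8.69), and 7, 8 and 2 in Live-seq ASPC_Post (3.65). In ASPC_Pre of batches 9_1 and 9_4 the Spearman correlation across cells was 0.33 (n = 44) and 0.39 (n = 43), and 0.17 and 0.19 given the number of genes counted per cell. Cells of a batch are not independent of each other, and the number of genes counted per cell moved with these values.

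F3, the regulatory marker, was compared with Icam1 in the same way. Every one of the 28 Icam1-counted cells of scRNA-seq ASPC_Pre batch 9_1 also had an F3 count, as did all 20 of Live-seq ASPC_Pre batch 9_4, all 16 of scRNA-seq ASPC_Post and all 9 of Live-seq ASPC_Post, and 6 of 7 in scRNA-seq ASPC_Pre batch 8_8 (Spearman correlation 0.34 over 16 cells). F3 was counted in most cells, so that independent shares would give 26.1, 17.2, 13.7 and 5.84 cells in the first 4 groups. The abundant members were also counted in these cells, since Mfap5 and Thy1 were counted in all 44 cells of scRNA-seq batch 9_1, and all 20 Icam1-counted cells of Live-seq batch 9_4 had Mfap5, Ly6a and Thy1. The levels of Icam1 were correlated with those of Mfap5, Ly6a and Thy1 at 0.12, 0.18 and 0.03 in scRNA-seq batch 9_1 and at −0.04, 0.00 and 0.07 in Live-seq batch 9_4. With F3, the Spearman correlation of the levels was 0.44 in scRNA-seq and 0.62 in Live-seq ASPC_Pre of these batches, and 0.25 and 0.43 given the number of genes counted. In ASPC_Post it was 0.16 and 0.44. Cd55, Icam1 and F3 were all counted in 24 of 44 and 14 of 43 ASPC_Pre cells of these batches, and no ASPC cell of batches 9_1 and 9_4 had Icam1 without F3.

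**Figure D4:**
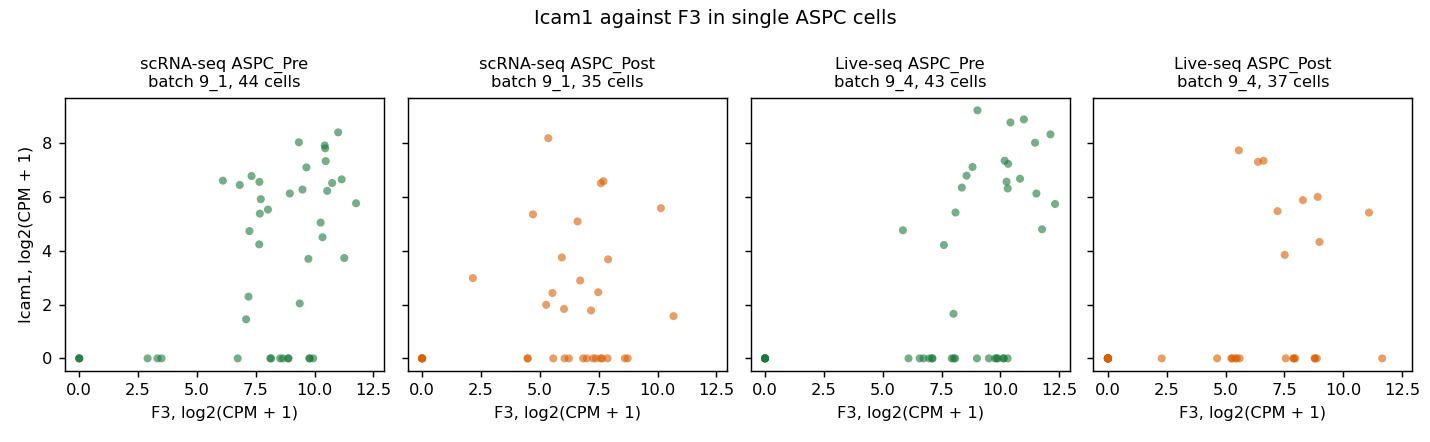
Icam1 against F3 in single ASPCs, both as log2(CPM + 1), in the 2 scRNA-seq and the 2 Live-seq groups of batches 9_1 and 9_4; each point is 1 cell. No cell with Icam1 lies at F3 = 0, while many cells with F3 lie at Icam1 = 0.

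Over all pairs of the 10 genes in which both were counted in at least 5 cells, the median Spearman correlation was low, at 0.14 over 36 pairs in scRNA-seq ASPC_Pre batch 9_1 and 0.17 over 21 pairs in Live-seq ASPC_Pre batch 9_4. The highest pair in scRNA-seq was Mfap5 with Ly6a at 0.54, a value that was 0.21 in Live-seq batch 9_4 and −0.07 in scRNA-seq batch 8_8. Ly6a and Thy1 had 0.50 in scRNA-seq and 0.44 in Live-seq ASPC_Pre of these batches and 0.06 and −0.05 in ASPC_Post, but −0.53 in the 16 ASPC_Pre cells of scRNA-seq batch 8_8 and −0.05 in the 18 of Live-seq batch 8_8, so that the direction differed between batches of the same state. Pdgfra was correlated with Icam1 (0.45 and 0.41) and with F3 (0.45 and 0.30) in ASPC_Pre, though in Live-seq these were 0.01 and −0.04 given the number of genes counted. Mfap5 and Pdgfra had −0.02 in scRNA-seq and −0.25 in Live-seq. The 2 interstitial genes that were counted often, Cd55 and Mfap5, were correlated at 0.17 in both techniques. This value does not take the number of genes counted into account, which lowered the value of Cd55 with Icam1. The 2 pairs are therefore not ranked against each other.

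**Figure D5:**
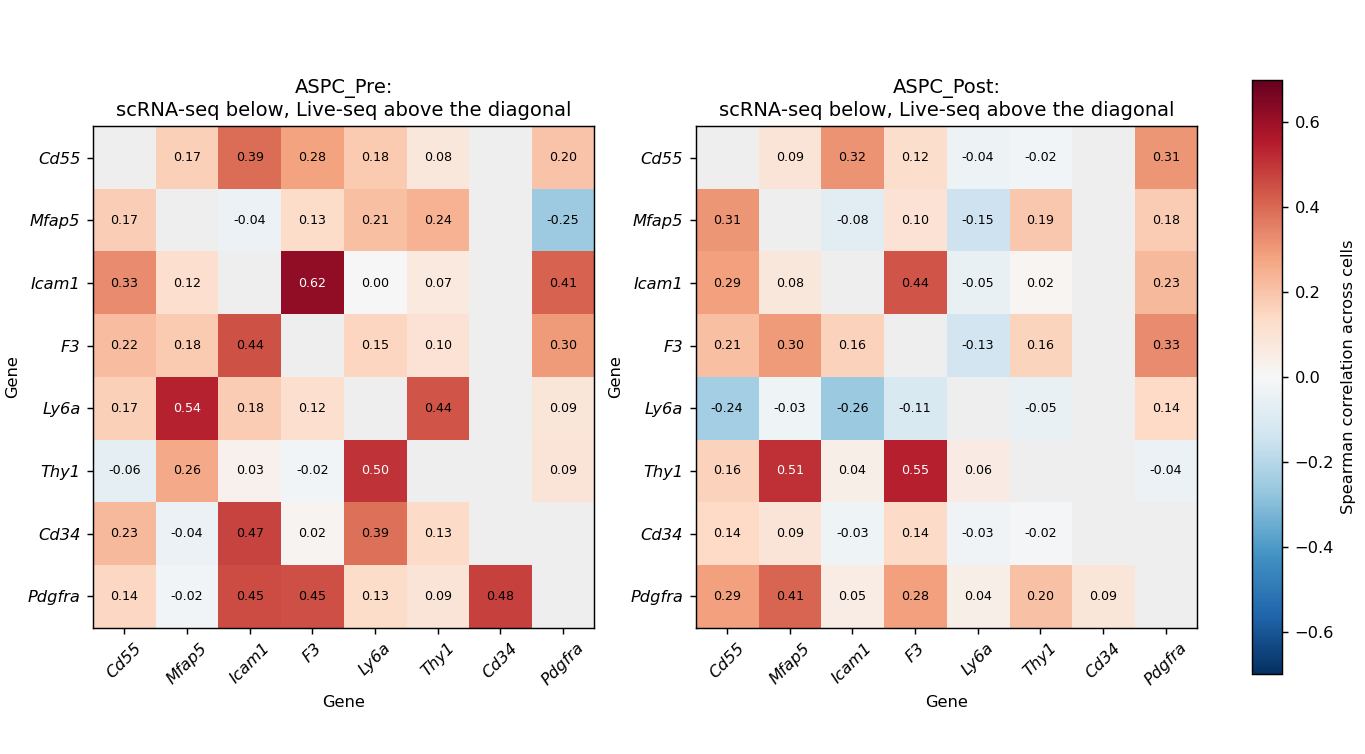
Spearman correlation of log2(CPM + 1) across single ASPCs for pairs of 8 of the 10 genes, with scRNA-seq batch 9_1 below and Live-seq batch 9_4 above the diagonal, for ASPC_Pre (44 and 43 cells, left) and ASPC_Post (35 and 37 cells, right). Grey cells were not computed; Icam1 with F3 (0.44 and 0.62) and Ly6a with Thy1 (0.50 and 0.44) stand out in ASPC_Pre.

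IBA cells served as a comparison for F3, Pdgfra and Cd34, and no difference in correlation was tested. In IBA, F3 and Pdgfra were correlated at 0.62 (45 cells, scRNA-seq batch 9_1), 0.42 (93 cells, batch scRNA), 0.24 (15 cells, batch 8_8) and 0.66 (17 cells, Live-seq batch 9_4), beside 0.61 and 0.45 in the scRNA-seq ASPC_Pre batches 8_8 and 9_1 and 0.30 in Live-seq batch 9_4. F3 and Cd34 were correlated at −0.45 in batch 9_1 and −0.50 in batch scRNA, and 34 of the 93 cells of the latter had both, against 37.4 by independent shares. In Live-seq batch 9_4 the F3 and Cd34 value was 0.17 over 17 cells, 6 of which had a Cd34 count. In scRNA-seq ASPC_Pre batch 9_1 the same pair had 0.02.

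Among 9329 genes with a count in 50% or more of the 44 ASPC_Pre cells of scRNA-seq batch 9_1, the genes most like each member were as follows. Ly6a was nearest to Ly6c1, a member of the same family, with a Spearman correlation of 0.84, which was 0.44 in batch 8_8, 0.39 in ASPC_Post and 0.77 in Live-seq ASPC_Pre batch 9_4, and then to the chemokine Ccl8 (0.67, and −0.05 in batch 8_8 and 0.48 in Live-seq). Icam1 was nearest to Ptprm, a receptor phosphatase (0.79, and 0.53 in Live-seq), and Tmtc3 (0.75, and 0.54). F3 was nearest to Zmpste24, a protease that processes lamin (0.75, and 0.54 in Live-seq), and Tgfbr3, a TGF-beta co-receptor (0.75, and 0.44). Mfap5 was nearest to B2m (0.68, and 0.54 in Live-seq) and Tmed10 (0.67, and 0.30), and Thy1 to Cd63 (0.54, and 0.44) and Ly6c1 (0.54, and 0.61). In scRNA-seq ASPC_Pre batch 8_8 (16 cells), the values in the same order were 0.24 and 0.29 for Icam1 and 0.64 and 0.48 for F3. They were 0.32 and 0.17 there for Mfap5 and 0.53 and 0.07 for Thy1. In scRNA-seq ASPC_Post, Icam1 had 0.48 and 0.61, F3 0.23 and 0.24, Mfap5 0.34 and 0.40, and Thy1 0.05 and 0.36. The nearest genes of Cd55, which were Ecscr (0.70, and 0.10 in Live-seq) and Ubac2 (0.63, and 0.26), of Cd34, which were Retsat (0.68, and 0.18) and Pde3a (0.58, and −0.17), and of Pdgfra, which were Eif2ak3 (0.67, and −0.05) and Vldlr (0.66, and 0.08), had lower values in Live-seq ASPC_Pre. The highest of 9329 correlations over 44 cells is high by selection, and the Live-seq values were not used in it.

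RAW cells gave the background of a cell of another lineage. Ly6a, Thy1, Pdgfra, Mfap5, Cd34 and F3 were at 33.01 CPM or less in all RAW batches, and F3 was the highest among them. Pi16 reached 59.5 CPM in Live-seq RAW_Mock batch 7, where 3 of 20 cells had a count. Icam1 was higher. It was at 104.2, 136.9 and 332.3 CPM in the scRNA-seq RAW_Mock batches 8_8, 9_1 and scRNA and at 874.5, 1090 and 2230 CPM in RAW_LPS of the same batches, between 6.71-fold and 8.39-fold higher within a batch. In Live-seq it was between 13.1-fold and 15.6-fold higher in RAW_LPS in the 4 batches with both states. Every scRNA-seq RAW_LPS batch lay above every ASPC batch in Icam1.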

How the data were processed

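Single-cell libraries were made with Smart-seq2 chemistry, without molecular identifiers. The deposited table holds raw counts per Ensembl gene, which the authors made from 75-base reads with STAR 2.6.1c on mm10 and counted with HTSeq in union mode without strand (Ensembl release 87). As in the study, 20 genes that marked negative controls and 92 genes of ribosomal proteins did not enter.

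Groups were taken from the labels. Counts of at least 3 cells were summed per technique, batch and state, and CPM of the sums was the level. Sums of all states entered edgeR 4.0.16 quasi-likelihood fits (R 4.3.3, TMM, batch as block, prior count 0.125). Genes needed 2 counts in 15% of the cells of a scRNA-seq state and had to pass filterByExpr. Calls required an adjusted p under 0.05 (Benjamini-Hochberg over all genes) and an absolute log2 fold change over 1. The SE of an edgeR log2 fold change was derived from its test, as its absolute value divided by the square root of the F statistic. The labels name the batch that states share, and deviations from the state means within a shared batch were correlated at 0.16 in Live-seq and 0.26 in scRNA-seq over 2 shared batches. Each script for many genes was tested on simulated data. Shares of cells have exact binomial and pooled levels Poisson intervals at 95%. Correlations across cells used log2(CPM + 1) and carry no test. Alternatives were DESeq2 1.42.0, the newer edgeR fit, other filters, no block, each batch left out, cells thinned to 50000 counts, and other measures of co-expression.

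The members, gene lists and tests were chosen with earlier results of these data known. All 10 members are named in the comparisons, except in the test of the difference between techniques, where only counts are given. Of each further list, the called genes with the highest absolute fold change are named, at most 3 each way, and for each member counted in at least 10 cells the 2 genes with the highest correlation.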

Additional observations from a re-analysis of the deposited data

Results flagged for a closer look

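In the 9 ASPCs sampled by Live-seq before and after induction, 3 genes had 1 cell whose change lay far above the others. For Pi16, the highest log2(CPM + 1) change was 1.62, in the 1 cell that had a Pi16 count after induction, while the other 8 cells had none at either time. For F3 it was 6.61, in the 1 cell that was higher after induction, against falls in the other 8. For Cd34 it was 7.21, in the 1 cell with a Cd34 count after induction. These were the outlying values among 11 groups examined by the gap of the highest or lowest value to its neighbour. Chance passes this measure in about 1 group in 20 only where the values are continuous. The change was 0 in 8 of 9 cells for Pi16 and in 7 of 9 for Cd34. There a single cell with a count is enough for a wide gap, and that rate does not hold.

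In a separate experiment, IBA cells were profiled by scRNA-seq 1 and 4 h after a Live-seq extraction, with unsampled cells (labelled 0 h) as the control, all in 1 batch, so that the differences have no replicate check. F3, tissue factor, was at 241.8 CPM at 1 h (49 cells), against 51.97 CPM at 0 h (70 cells) and 64.1 CPM at 4 h (43 cells). The ratio of sampled cells at 1 h to unsampled cells was 4.65, with a counting interval of 4.38 to 4.95. That interval leaves out the spread between batches. In the scRNA-seq IBA batches of the main experiment F3 ranged from 29.4 to 495.05 CPM, which includes all values given here. In its own test, the study found few genes that differed significantly among these conditions. Mfap5, which was nearly absent from the IBA cells of the main experiment, was at 4.61 CPM at 1 h, against 0.205 CPM at 0 h and 1.01 CPM at 4 h, and was counted in 22.4% of the 49 cells at 1 h.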

How the results depend on the processing

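Among the values of single members under an alternative, 4 lost and 10 gained a call, 11 turned sign and 2 levels moved beyond the spread, and the others kept direction and side of the threshold. No gene called in the fits as reported turned sign. Leaving out each batch in turn gave 4 to 5 called members in ASPC_Pre against IBA in scRNA-seq and 0 to 0 in the other comparisons. In Live-seq that comparison called 1 member with DESeq2 (Icam1, 8.84, adjusted p = 0.000432), 1 without a filter on low counts (Mfap5, 13.64, adjusted p = 0.0247) and 1 without the batch block (Mfap5, 13.70, adjusted p = 0.0127). With the ASPC sums alone, 4 members were called on induction. Without the batch block, 4 members were called in scRNA-seq, where Ly6a was lost, and 0 on induction and in the difference between techniques. With a block of batch added, 0 were called in Live-seq against scRNA-seq.

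Signs turned with a batch left out for Pdgfra against IBA in scRNA-seq (−0.64 without batch 8_8 to 2.78 without batch 9_1) and in Live-seq (−1.45 without batch 8_8 to 1.11 without batch 9_4). On induction they turned for Mfap5 (0.26), Ly6a (0.51) and Pdgfra (0.093) with DESeq2, for Ly6a without the block (1.14), for Ly6a with a batch left out (−1.33 without Live-seq batch 9_4, 0.029 without scRNA-seq batch 9_1 and 0.16 without Live-seq batch 8_8), for Pdgfra with a batch left out (−1.16 without scRNA-seq batch 9_1 to 0.15 without scRNA-seq batch 8_8), and for Ly6a (0.47) and Pdgfra (0.55) with the ASPC sums alone. The cause was not tested. The median over all genes on induction moved from 0.00 to 0.20 with DESeq2.

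The mean number of members counted in a scRNA-seq ASPC_Pre cell, taken as the unweighted average of the batch means, went from 6.14 to 5.55 with cells thinned. Given the number of genes per cell, the median pair correlation went from 0.103 to −0.021 in Live-seq ASPC_Post, from 0.168 to 0.045 in Live-seq ASPC_Pre batch 9_4 and from 0.235 to 0.113 in scRNA-seq ASPC_Pre batch 8_8. By presence alone it was 0.291 in Live-seq ASPC_Post, 0.343 and 0.121 in Live-seq ASPC_Pre batches 9_4 and 8_8, and 0.187 and 0.258 in scRNA-seq ASPC_Post and ASPC_Pre of batch 9_1.

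Counts over all genes depended on the setting. Against IBA in scRNA-seq, 1412 genes were called, against 2157 with the newer edgeR fit, 780 without the block, 82 without batch 9_1 and 450 without batch scRNA, and 64.8% of calls were higher in ASPC_Pre, against 54.2%, 71.95% and 75.1% without batches 8_8, 9_1 and scRNA. In Live-seq, 1 gene was called, against 1.67% of genes with DESeq2, 12 genes with the newer fit, 15 without a filter, 12 without the block and 0 with at least 10 cells per sum or without any 1 batch. On induction the count of 4 became 99 with DESeq2, 28 with the newer fit, 16 with at least 10 cells per sum, 0 without the block, 0 to 4 with a batch left out and 1232 with the ASPC sums alone. For Live-seq against scRNA-seq the count of 0 became 62 with DESeq2, 1 without a filter and 24 without Live-seq batch 9_4, and for the difference between techniques 75 with DESeq2, 1 without a filter, 1 without the block and 1.29% of genes without Live-seq batch 9_4.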

Other observations

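The genes known to respond to the cocktail were summed at 238.9 CPM in ASPC_Pre and 1343 CPM in ASPC_Post of scRNA-seq batch 9_1, and at 232.5 and 929.3 CPM in Live-seq batch 9_4. The adipocyte genes Adipoq and Lep had no count in either state, but others of the 8 genes in that list were counted. In Live-seq batch 9_4 the list summed to 0.692 CPM in ASPC_Pre (3 of 43 cells) and 7.07 CPM in ASPC_Post (9 of 37 cells). In scRNA-seq ASPC_Post, 4 of the 8 genes were counted, summing to 7.26 CPM (18 of 35 cells).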
